A study of Mus musculus with 16 samples.

Results

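The 4 Hox clusters of the mouse genome were examined for peaks of single-strand break sequencing (SSB-seq), a method that labels the DNA at nicks and gaps by brief nick translation and pulls the labelled fragments down. A peak belonged to the Hox clusters where at least 1 bp of it lay in the body of a protein-coding Hoxa, Hoxb, Hoxc or Hoxd gene or within 5 kb of it, in the GENCODE M21 annotation of build mm10. These windows around 39 genes covered 451685 bp and held 70 of the 103545 peaks in the 4 lists of the study. By condition the members were 15 of 28559 peaks in wild-type cells given DMSO, 8 of 15544 in wild-type cells given talazoparib, 32 of 35459 in knockout cells given DMSO and 15 of 23983 in knockout cells given talazoparib. Peaks were counted once per cluster, so a peak in the windows of several neighbouring genes counted as 1.

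The cells, mouse embryonic stem cells (strain C57BL/6JRj) kept without serum in 2i medium with LIF, were either wild type (WT) or depleted of the DNA glycosylase TDG (KO). The knockout arose by 4-hydroxytamoxifen (4-OHT) excision of a Tdg minigene, and the protocol states a 2 h exposure to 5 uM of the compound; the sources used here do not say whether wild-type cells received it too. Each genotype was given DMSO, or the PARP inhibitor talazoparib at 5 nM for 24 h. Each of the 4 conditions had 3 immunoprecipitated (IP) libraries and 1 input library, 16 in all, and the deposited peak list of a condition gives 1 pooled value per peak. There is therefore no spread between replicates and no test between conditions, and the counts and values below describe 4 lists. The 2 flow cells of the wild-type libraries were not those of the knockout libraries, so a difference of genotype and one of sequencing run cannot be told apart. The wild-type lists rest on 87.0 M (DMSO) and 83.8 M (talazoparib) IP tags, the knockout lists on 69.2 and 66.4 M, and the inputs on 38.1, 24.5, 24.8 and 28.3 M tags, in that order. They hold no expression value, so neither the loss of Tdg nor the identity of the cells was checked here.

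Hox genes encode homeodomain transcription factors that give cells along the head-to-tail axis their positional identity. Their order along a cluster matches the order in which they are used, from the anterior genes with low numbers, which answer first to retinoic acid, to the posterior genes with high numbers. In naive embryonic stem cells most of these genes are silent, and their CpG-rich starts carry the polycomb mark H3K27me3 together with H3K4me3. TDG removes thymine from G:T mismatches and also removes formylcytosine and carboxylcytosine, oxidised forms of methylcytosine, and the repair that follows passes through a single-strand break.

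Stretches of 6 regions are shown first, since all 6 had a peak in at least 2 lists, Hoxd10 in 2, Hoxb9, Hoxb13 and the one between Hoxc13 and Hoxc12 in 3, and Hoxd1 and Hoxa7 in 4. Each line gives a stretch near the centre of the region, moved where needed to avoid untranslated exons, read in 5′ to 3′ direction of the gene's strand from build mm10 (GRCm38), with every CpG in capitals.

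First coding exon of Hoxd1, chr2:74763102-74763270, plus strand: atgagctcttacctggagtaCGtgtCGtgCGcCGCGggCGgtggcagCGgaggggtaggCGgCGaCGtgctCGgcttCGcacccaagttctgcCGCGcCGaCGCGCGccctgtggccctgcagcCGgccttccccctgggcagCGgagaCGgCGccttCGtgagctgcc
Hoxa7 gene body, chr6:52217597-52217796, minus strand: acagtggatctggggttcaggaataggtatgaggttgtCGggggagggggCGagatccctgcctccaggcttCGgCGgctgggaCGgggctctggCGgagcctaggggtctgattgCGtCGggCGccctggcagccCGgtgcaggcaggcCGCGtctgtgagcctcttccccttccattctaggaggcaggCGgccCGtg
First coding exon of Hoxb9, chr11:96271803-96272002, plus strand: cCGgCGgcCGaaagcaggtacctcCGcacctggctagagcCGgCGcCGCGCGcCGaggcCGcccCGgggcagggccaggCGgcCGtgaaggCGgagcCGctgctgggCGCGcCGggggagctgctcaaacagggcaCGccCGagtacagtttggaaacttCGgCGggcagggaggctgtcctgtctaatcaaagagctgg
Upstream of Hoxb13, chr11:96190029-96190228, plus strand: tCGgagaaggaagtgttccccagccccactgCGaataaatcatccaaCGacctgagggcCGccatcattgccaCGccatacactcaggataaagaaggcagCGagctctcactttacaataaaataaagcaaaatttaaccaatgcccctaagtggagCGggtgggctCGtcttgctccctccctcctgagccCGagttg
Between Hoxc13 and Hoxc12, chr15:102931745-102931944, plus strand: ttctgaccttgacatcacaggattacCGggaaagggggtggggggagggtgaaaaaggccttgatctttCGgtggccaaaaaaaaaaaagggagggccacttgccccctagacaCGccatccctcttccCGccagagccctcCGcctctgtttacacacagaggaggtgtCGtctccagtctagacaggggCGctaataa
Upstream of Hoxd10, chr2:74691515-74691714, plus strand: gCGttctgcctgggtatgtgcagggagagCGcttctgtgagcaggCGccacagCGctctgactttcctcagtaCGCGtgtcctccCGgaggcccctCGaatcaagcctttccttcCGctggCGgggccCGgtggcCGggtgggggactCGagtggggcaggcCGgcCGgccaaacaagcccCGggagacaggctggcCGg

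The stretches from the coding exons of Hoxd1 and Hoxb9 were the densest in CpG of those shown, with 13.6 and 11.5 CpG per 100 bp. The stretch between Hoxc13 and Hoxc12 had the fewest, with 3.50 per 100 bp, and the one upstream of Hoxb13 had 4.50. The other 2 lay between these, at 8.50 upstream of Hoxd10 and 7.0 in Hoxa7. The region with the highest normalized tag counts among these 6 thus had the CpG-poorest stretch. The start of Hoxc13, which is not among them, had counts of 30.1 (DMSO) and 35.2 (talazoparib) in the knockout lists. Its peaks there held 6.51 and 6.76 CpG per 100 bp, so high counts did not go with few CpG throughout.

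**Figure D1:**
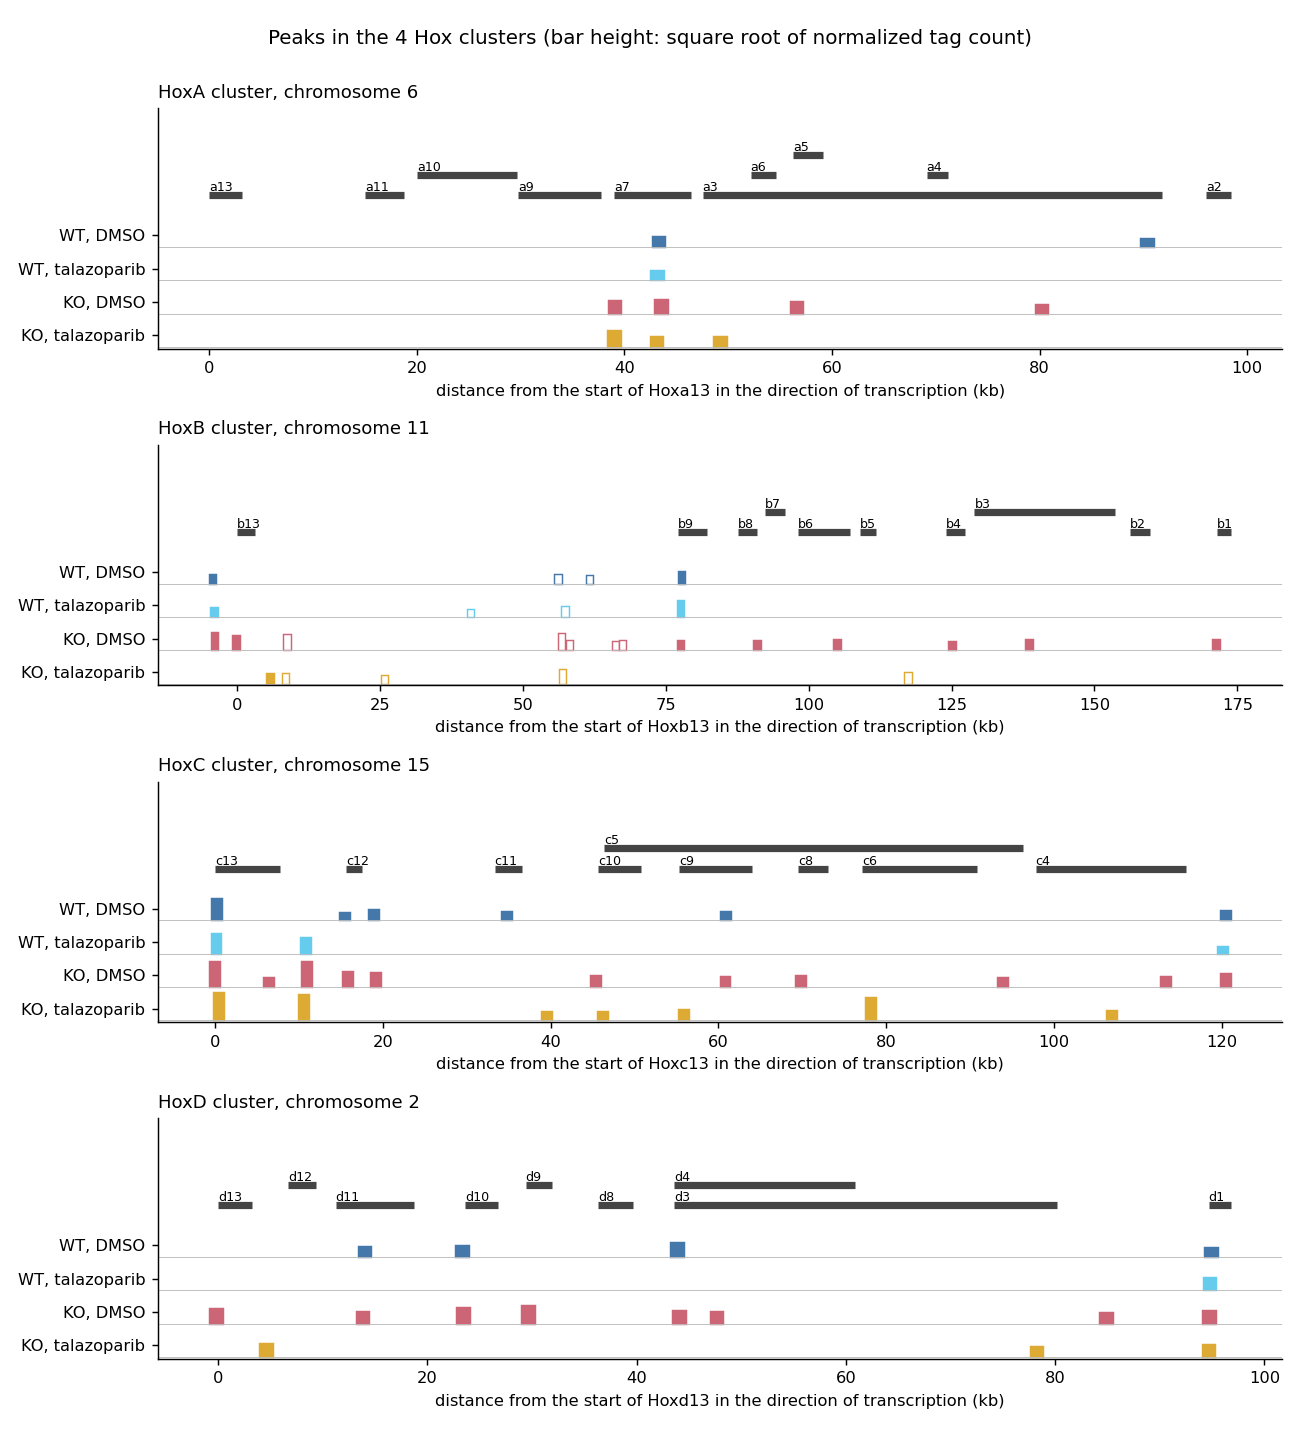
Map of the HoxA, HoxB, HoxC and HoxD clusters, with distance in kb from the start of the most posterior gene on the horizontal axis, genes as dark bars and peaks of the 4 lists in rows below. Bars of fixed width stand at the peak centres, their height is the square root of the normalized tag count, and open bars are peaks inside the HoxB cluster that fall outside the gene windows. The HoxA stretch that holds Hoxa13, Hoxa11, Hoxa10 and Hoxa9 has no peak in any list, and most of the HoxB central genes have a peak in KO DMSO alone.

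The share of each list that fell in Hox windows was 0.0525% in WT DMSO (95% Wilson interval 0.0318 to 0.0866), 0.0515% in WT talazoparib (0.0261 to 0.102), 0.0902% in KO DMSO (0.0639 to 0.127) and 0.0625% in KO talazoparib (0.0379 to 0.103). These intervals cover counting error only, and they overlap between all 4 lists. KO DMSO held 2.13 times the Hox peaks of WT DMSO, where the whole list was 1.24 times as long and 40 other homeobox regulators held 1.07 times as many peaks. Between the talazoparib lists the Hox ratio of KO to WT was 1.88, against 1.54 for all peaks and 1.76 for the other homeobox regulators. Talazoparib lists held 0.533 times the Hox peaks of the DMSO list in wild-type cells and 0.469 times in knockout cells, against 0.544 and 0.676 for all peaks and 0.431 and 0.710 for the other homeobox regulators. Limited to peaks with a fold over input of at least 6, the Hox counts were 2 with DMSO and 5 with talazoparib in wild-type cells and 13 and 3 in knockout cells, so the order of the wild-type lists and that of the talazoparib lists both turned. The median fold of all peaks was 5.15 and 7.16 in the wild-type lists and 6.35 and 5.22 in the knockout lists, DMSO first. This limit thus kept a larger part of the whole WT talazoparib and KO DMSO lists than of the other lists. Limited to the 15526 best-scoring peaks of each list, the Hox counts were 12, 8, 18 and 12 with the wild-type lists first and DMSO before talazoparib, an order kept throughout. At equal list length KO DMSO thus still had the highest count, but 18 against 12 in WT DMSO rather than 32 against 15. The knockout lists also came from fewer IP tags than the wild-type lists, and the part of depth in these counts was not tested.

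Of the 39 Hox genes, 19 had a peak in their body or 5 kb flanks in WT DMSO (48.7%, where 60.9% of 21938 protein-coding genes did), 10 in WT talazoparib (25.6%, against 48.8%), 33 in KO DMSO (84.6%, against 66.8%) and 20 in KO talazoparib (51.3%, against 58.9%). The Hox share was below that of protein-coding genes in 3 lists and above it in KO DMSO. Hox genes are short and dense in CpG, so they were also set beside the 7071 other protein-coding genes whose window length and CpG density lay in the Hox range, a comparison added after seeing the data. Of those genes 84.8%, 68.0%, 91.1% and 81.4% had a peak, so the Hox share was the lower in every list, and in KO DMSO by the smallest margin. Neighbouring Hox windows overlap and share peaks, and no test was made of these shares. Within 2 kb of the gene start the Hox counts were 9, 4, 19 and 10 genes, or 23.1%, 10.3%, 48.7% and 25.6%, where 44.9%, 34.5%, 53.6% and 43.5% of all protein-coding genes had a peak. The share was thus lower for Hox starts in all 4 lists, and in KO DMSO it came closest to the background.

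**Figure D2:**
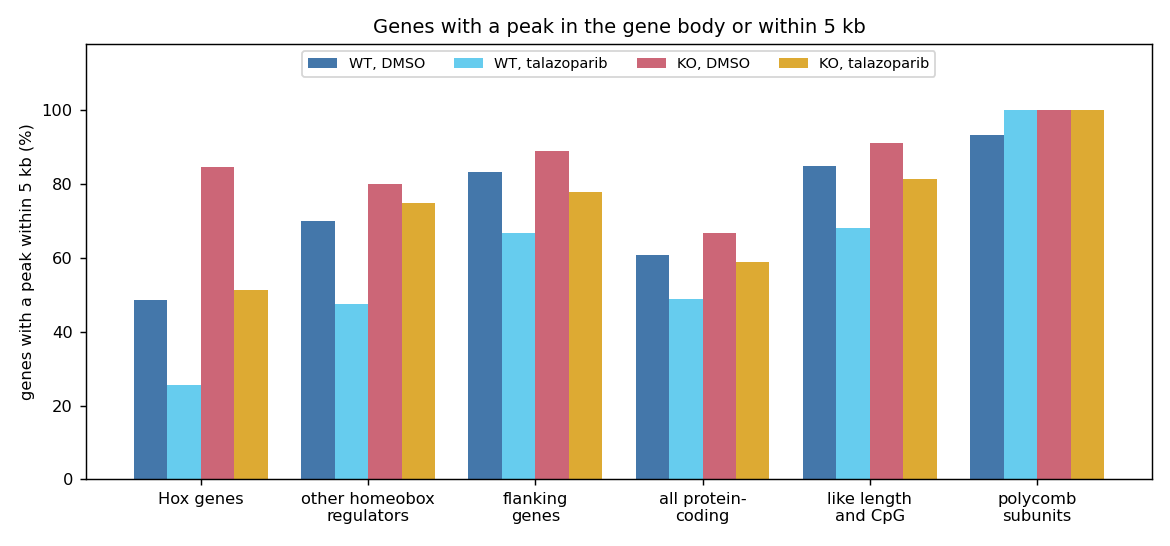
Bars, from 0, give the percentage of genes that had a peak in their body or 5 kb flanks in the 4 lists for 39 Hox genes, 40 other homeobox regulators, 18 genes flanking the clusters, all protein-coding genes, protein-coding genes of like window length and CpG density, and 15 polycomb subunits. The Hox bars range from 25.6% to 84.6%, and the Hox bar of KO DMSO is the only one of the 4 above that of all protein-coding genes.

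Per length of window, the Hox clusters held more peaks than protein-coding genes at large. Peaks per 100 kb of window were 3.32, 1.77, 7.08 and 3.32 in the Hox clusters and 1.84, 1.04, 2.29 and 1.57 in the windows of all protein-coding genes, a ratio of 1.80, 1.70, 3.09 and 2.11. Per 1000 CpG of window the Hox values were 1.3, 0.694, 2.77 and 1.3, against 1.86, 1.05, 2.32 and 1.58. Counted per CpG, the Hox windows were below protein-coding windows in 3 lists and above them in KO DMSO. The choice of denominator, gene, base or CpG, decides on which side of the background the clusters fall in WT DMSO, WT talazoparib and KO talazoparib.

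By normalized tag count, which grows with peak length, the Hox median was near that of all peaks in the DMSO lists, above it in WT talazoparib and below it in KO talazoparib. The authors' normalized tag count, in IP tags per 10000000, had a median of 4.94 (range 2.99 to 22.5), 8.38 (2.74 to 19.9), 7.16 (3.90 to 31.2) and 5.57 (3.69 to 35.2) over the Hox peaks, and 4.83, 5.07, 6.87 and 7.45 over all peaks. IP tag density, the tags per base relative to the genome mean of the same list, had Hox medians of 2.19, 2.70, 2.88 and 2.95, against 2.00, 2.11, 2.53 and 2.91 over all peaks. Per base, the KO talazoparib median was thus not below that of all peaks. Input density was also somewhat above that of all peaks, with Hox medians of 0.459, 0.416, 0.579 and 0.620 against 0.417, 0.306, 0.426 and 0.561. A median Hox peak rested on 4.00, 3.25, 3.50 and 3.50 input tags, and 2, 3, 9 and 5 of the Hox peaks had fewer than 3 input tags. The fold of a peak over input is thus set by very few input tags. Every list called peaks with a fold of at least 4.0, so weaker sites are outside these lists.

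**Figure D3:**
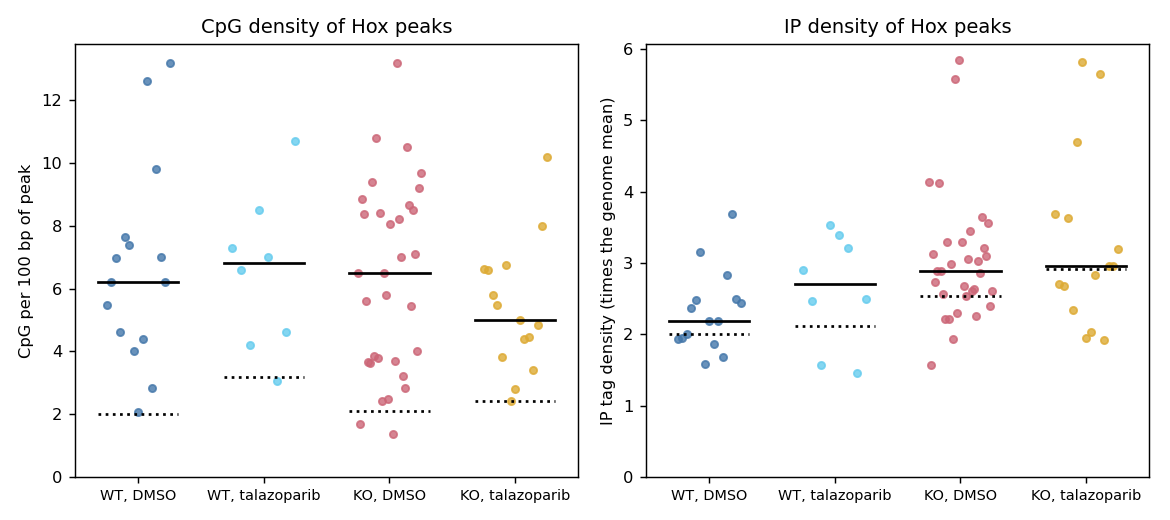
Points are single Hox peaks of the 4 lists, on the left by CpG per 100 bp and on the right by IP tag density relative to the genome mean, with a solid line at the Hox median and a dotted line at the median of all peaks of the list. The Hox median CpG density, from 5.00 to 6.80, lies above the dotted line in every list, while the IP densities spread from 1.45 to 5.85 around lines close to each other.

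In the HoxA cluster on chromosome 6, which is read from the minus strand, 3, 2, 5 and 4 peaks were called. Hoxa7, a central gene of trunk identity, had a peak in its body in every list, centred 1121 bp downstream of the start that RefSeq gives the gene. Its normalized tag counts were 4.88, 4.65, 10.2 and 5.04, so KO DMSO was high and the other 3 alike within their intervals, while the densities, at 2.00, 2.46, 2.73 and 2.67, lay closer together. A separate peak at the 5′ end of the longer GENCODE model of Hoxa7 was called in the knockout lists alone, at 8.17 with DMSO and 12.3 with talazoparib. Further HoxA peaks were each in 1 list: over a coding exon of Hoxa3 in WT DMSO (3.68), over Hoxa5 and in the long Hoxa3 model in KO DMSO (7.45 and 3.90), and in that model again in KO talazoparib (5.12). Hoxa6 and Hoxa9 had peaks only through the flanks that they share with neighbours.

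No peak of any list touched Hoxa4, Hoxa10, Hoxa11 or Hoxa13 or their flanks. The longest stretch of HoxA without a peak, chr6:52222337-52265880, ran over 43.5 kb to the posterior end of the windows and holds the bodies of Hoxa9, Hoxa10, Hoxa11 and Hoxa13, the genes of limb and posterior identity. It was not poor in CpG, with 3.22 per 100 bp against 2.92 over all HoxA windows, and 13.4% of it was soft-masked repeat, against 13.3%. It was the longest such stretch of the 4 clusters, where HoxB had 32.1 kb, HoxD 30.1 kb and HoxC 14.9 kb. An absent peak means that no site there passed the authors' threshold, and whether reads map less well there was not tested.

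In the HoxB cluster on chromosome 11, 2, 2, 8 and 1 peaks were called, the least even distribution of the 4 clusters. Hoxb9, a posterior gene of the trunk, had a peak over its first coding exon in 3 lists, at 7.24 in WT DMSO (95% Poisson interval 5.56 to 9.26, as for the intervals of other peaks), 12.7 (10.4 to 15.4) in WT talazoparib and 4.84 (3.34 to 6.78) in KO DMSO. Here the wild-type talazoparib list was the highest and KO talazoparib had no peak. The densities were 2.48, 3.53 and 2.56, so WT DMSO and KO DMSO were closer per base. Upstream of Hoxb13, the isolated gene at the posterior end, the values were 4.48 (3.19 to 6.12), 4.53 (3.21 to 6.22) and 15.7 (12.9 to 18.9), again with none in KO talazoparib. These peaks differ in length, and their densities were 2.37, 1.57 and 4.12. A further peak over the start of Hoxb13 was called in KO DMSO at 10.5, and a peak downstream of it in KO talazoparib at 5.57.

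Between Hoxb8 and Hoxb1 the only peaks in the windows were those of KO DMSO. They lay at the 3′ end of Hoxb8 (5.21), in a coding exon of Hoxb6 (6.22) and in introns of Hoxb4 (4.19) and Hoxb3 (5.64). Another lay over the start of Hoxb1 (5.71), a HoxB gene of the hindbrain. Through shared flanks these 5 peaks gave Hoxb1, Hoxb3, Hoxb4, Hoxb5, Hoxb6, Hoxb7 and Hoxb8 a peak, and none of these 7 genes had one in another list. Their values ran from 4.19 to 6.22, on between 1.00 and 3.50 input tags, and all 5 were below the list's median of 6.87. Hoxb2 had no peak in any list.

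The windows leave a gap of HoxB between Hoxb13 and Hoxb9, and the values just outside the rule were as follows. In or beside the noncoding gene Gm53 every list had a peak: WT DMSO had 2, of 4.37 and 2.99, WT talazoparib 1 of 5.25, KO DMSO 4, of 13.9, 4.84, 3.98 and 5.13, and KO talazoparib 1 of 9.26. They lay between 4391 and 15694 bp from the nearest window. Farther out in the gap WT talazoparib had a peak of 2.74, at 30979 bp from the nearest window. KO talazoparib had a peak of 3.61 there, at 17419 bp. A KO DMSO peak of 12.1 and a KO talazoparib peak of 5.57 downstream of Hoxb13 missed the window by 5 and 140 bp. A KO talazoparib peak of 6.17 between Hoxb5 and Hoxb4 missed it by 277 bp, so the absence of that list from the central HoxB genes rests partly on where the windows end. Counted over the continuous spans of the clusters instead, the lists held 17, 10, 37 and 19 peaks.

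In the HoxC cluster on chromosome 15, 6, 3, 11 and 7 peaks were called, among them the strongest of all. The start and first coding exon of Hoxc13, a posterior gene known from hair and nail, had the highest Hox value of both wild-type lists and of KO talazoparib: 22.5 (19.5 to 25.9) in WT DMSO, 19.9 (17 to 23.2) in WT talazoparib, 30.1 (26.1 to 34.5) in KO DMSO and 35.2 (30.8 to 40.0) in KO talazoparib. Both knockout values were above both wild-type values, and the intervals of the genotypes did not overlap, by a narrow margin. Densities were 3.15, 3.39, 5.58 and 4.70, and input densities 0.698, 0.764, 0.783 and 1.01. Within their lists these peaks ranked at the 95.5, 91.9, 93.4 and 94.0 percentile of normalized tag count.

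The region between Hoxc13 and Hoxc12 was not called in WT DMSO and had 13.1 (10.8 to 15.8) in WT talazoparib, 31.2 (27.2 to 35.7) in KO DMSO and 32.1 (27.9 to 36.7) in KO talazoparib. It lies outside every gene body, with its centre at -4932 bp from the start of Hoxc12. Its densities were 3.21, 5.85 and 5.82, the highest among the Hox peaks of both knockout lists. It was thus as strong in the knockout lists as the start of Hoxc13. Its CpG density in these lists was below the median of the Hox peaks, but near the median of all peaks. At the start of Hoxc12 itself peaks were called with DMSO alone, at 2.99 in WT and 11.9 in KO, as they were downstream of it, at 5.63 and 9.76. The KO peaks were longer, and the densities of WT and KO were 1.58 and 3.30 at the start and 2.19 and 2.68 downstream.

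**Figure D4:**
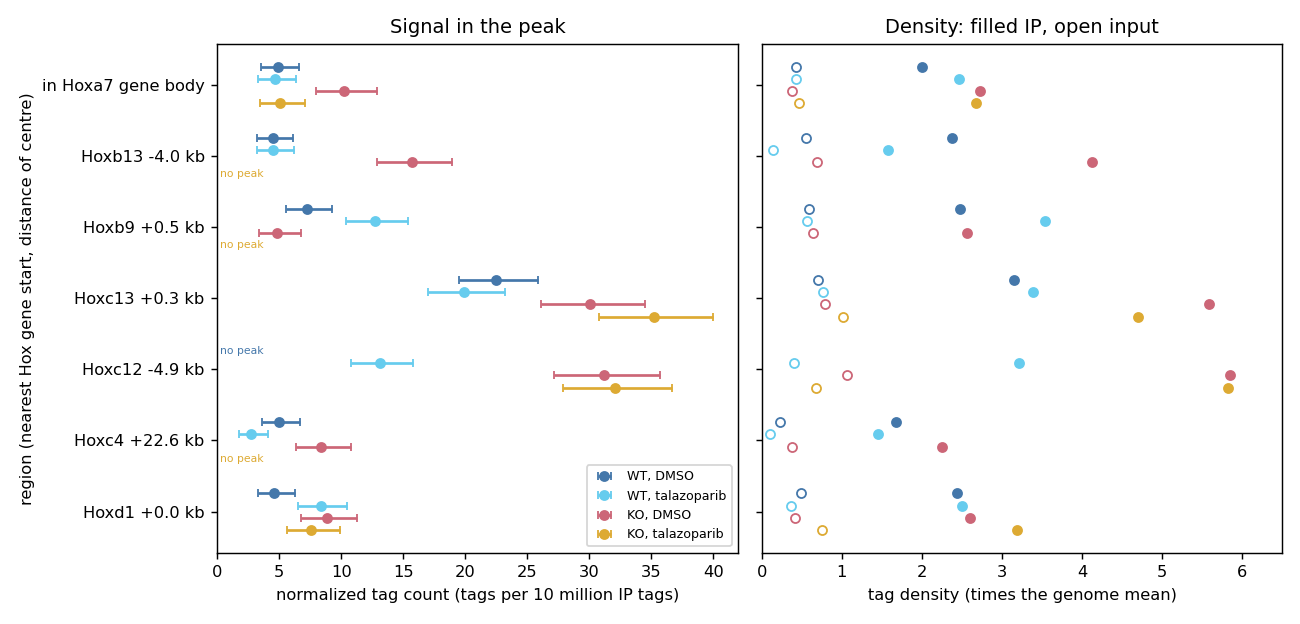
Hox regions with a peak in at least 3 lists, 7 shown, named by the nearest Hox gene start and the distance of the region's centre from it, or by the gene body. On the left, normalized tag count in IP tags per 10000000 with 95% Poisson intervals, and on the right the IP density (filled) and input density (open) relative to the genome mean. The knockout values at Hoxc13 lie to the right of the wild-type values, and Hoxb9 shows another order, with 12.7 in WT talazoparib and 4.84 in KO DMSO.

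Most of the other HoxC peaks stood in 1 list. A peak of 23.5 (20.0 to 27.5) in an intron of Hoxc6, a central gene of the thorax, was called in KO talazoparib alone, at a density of 5.65 and with an input density of 1.14. Downstream of Hoxc4 the values were 4.94, 2.74 and 8.39 in all lists but KO talazoparib, on 2.5, 0.5 and 3.5 input tags. A coding exon of Hoxc9 had 4.14 in WT DMSO and 5.78 in KO DMSO. KO DMSO alone had peaks at Hoxc8 (6.51), upstream of Hoxc10 (6.22), in the long Hoxc5 model beside Mir615 (4.92) and at 2 places in the untranslated exons of Hoxc4 and Hoxc13 (4.99 and 4.34). KO talazoparib alone had peaks in Hoxc9 (5.34), Hoxc4 (4.67) and Hoxc10 (3.84) and downstream of Hoxc11 (3.69), and WT DMSO alone had one in Hoxc11 (3.51). In GENCODE M21 the Hoxc5 model spans its neighbours Hoxc9, Hoxc8 and Hoxc6, so its peaks cannot be told apart from theirs.

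In the HoxD cluster on chromosome 2, 4, 1, 8 and 3 peaks were called. Hoxd1, the anterior end, had a peak over its start in every list, at 4.6 (3.29 to 6.26), 8.35 (6.51 to 10.5), 8.82 (6.75 to 11.3) and 7.53 (5.59 to 9.93). WT DMSO was the lowest, with an interval that reached that of KO talazoparib, the intervals of the other 3 lists overlapped each other, and the densities were 2.44, 2.50, 2.60 and 3.19. It was the only HoxD peak of WT talazoparib. At the shared 5′ end of Hoxd3 and Hoxd4, at Hoxd10 and in Hoxd11, peaks were called in the DMSO lists of both genotypes and in neither talazoparib list. WT and KO held 10.2 and 8.89 at Hoxd3 and Hoxd4, 6.95 and 12.4 upstream of Hoxd10, and 5.34 and 6.87 in Hoxd11. The peaks differ in length, and their densities were 2.50 and 3.10, 3.68 and 3.65, and 2.83 and 2.86. Per base WT and KO were thus alike upstream of Hoxd10 and in Hoxd11, and at Hoxd3 and Hoxd4 KO was the higher.

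KO DMSO alone had peaks over the start of Hoxd9 (15.8, 13 to 19.1) and of Hoxd13 (10.6, 8.31 to 13.3), the gene of the digits, in an intron shared by Hoxd3 and Hoxd4 (6.72), and in the noncoding gene Haglr (5.93). The Hoxd9 peak had the highest fold over input of any Hox peak, 19.7 in the authors' list, on 2.00 input tags. KO talazoparib alone had peaks upstream of Hoxd12 (9.26) and in a coding exon of Hoxd3 (5.57). In KO DMSO all 9 HoxD genes had a peak within 5 kb, as did all 9 HoxC genes in KO talazoparib. These rest on 8 and 7 peaks, since neighbouring windows share peaks. Of all protein-coding genes 66.8% and 58.9% had a peak in these lists. Of those with window length and CpG density in the Hox range 91.1% and 81.4% did.

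By place along the axis, the anterior genes (paralogue groups 1 to 3, 8 genes) included 5, 4, 7 and 5 with a peak within 5 kb. The central genes (groups 4 to 8, 15 genes) had 5, 2, 14 and 6, and the posterior genes (groups 9 to 13, 16 genes) 9, 4, 12 and 9. By this count the central genes had the lowest share of the 3 classes in the other lists and the highest in KO DMSO, beside 60.9%, 48.8%, 66.8% and 58.9% of all protein-coding genes. At starts, within 2 kb, the central genes had 1, 0, 7 and 3. The anterior genes had 3, 2, 4 and 3, and the posterior 5, 2, 8 and 4. The central share was thus the lowest there in every list, KO DMSO included. Of all protein-coding genes 44.9%, 34.5%, 53.6% and 43.5% had a peak within 2 kb of the start. Of the 39 genes, 9 had a peak within 5 kb in every list (among them Hoxa3, Hoxa7, Hoxb13, Hoxc4, Hoxc12, Hoxc13 and Hoxd1), 5 in 3 lists, 11 in 2, 9 in 1 and 5 in none. Hoxd1, at the anterior end of HoxD, is among the first, and Hoxb1, at that of HoxB, had a peak in KO DMSO alone. Such a tally was not made for all protein-coding genes. A gene in every list need not have the same peak in each, and neighbours share peaks. Hoxb13 and Hoxc4 had a different peak in KO talazoparib than in the other lists. In the talazoparib lists Hoxc12 had only the peak between Hoxc13 and Hoxc12, and in WT talazoparib Hoxa3 had only that in Hoxa7. Only 4 regions had a peak in all 4 lists.

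Merged where they overlapped, the 70 peaks made 43 regions, of which 28 were in 1 list, 7 in 2, 4 in 3 and 4 in all 4. The shares, 65.1%, 16.3%, 9.30% and 9.30%, were close to those of the 60802 regions of the whole genome, 61.6%, 17.7%, 11.2% and 9.47%. Which lists a region was in differed more. KO DMSO alone held 17 regions (39.5%, against 24.8% of all regions), KO talazoparib alone 9 (20.9%, against 11.9%), WT DMSO alone 2 (4.65%, against 17.9%) and WT talazoparib alone 0 (against 7.11%). The DMSO lists of both genotypes shared 6 regions that the talazoparib lists lacked (14%, against 6.21%). The 17 peaks of KO DMSO alone had a median normalized tag count of 5.93 (range 3.90 to 15.8). The 16 peaks of the 4 regions in all lists had a median of 8.62 (4.6 to 35.2). The 17 peaks come from 1 list and the 16 from all 4, whose medians over all peaks differ, so these sets are not alike.

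Hox peaks were rich in CpG. Their median was 6.20, 6.80, 6.49 and 5.00 CpG per 100 bp, against 2.00, 3.18, 2.10 and 2.4 over all peaks, and their median GC content 62.3%, 63.6%, 59.2% and 60.4%, against 52.6%, 54.8%, 52.4% and 53.5%. The Hox windows as a whole had 2.55 CpG per 100 bp against 0.990 in protein-coding windows, so the surroundings were also rich. Of the Hox peaks in the 4 lists, 7, 4, 15 and 6 were centred within 1 kb of the start of a protein-coding gene, or 46.7%, 50.0%, 46.9% and 40.0%, against 27.8%, 39.2%, 27.1% and 32.2% of all peaks. By the rule every Hox peak lies in a window of closely spaced genes, while 76.3%, 79.3%, 76.6% and 77.4% of all peaks lay in protein-coding windows. A higher share near starts is thus partly built into the choice of peaks. By the annotation at the centre, 6, 4, 12 and 7 lay outside Hox gene bodies and 5, 2, 7 and 3 in coding exons.

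The 5 motifs were searched on both strands in the central 500 bp of each peak. Runs of G that fit a G-quadruplex, 4 runs of GGG or longer with spacers of up to 7 bases, were in 5 of 15, 3 of 8, 17 of 32 and 8 of 15 Hox peaks, or 33.3%, 37.5%, 53.1% and 53.3%, where 23.1%, 28.6%, 23.5% and 27.4% of all peaks held them. The stretch shown between Hoxc13 and Hoxc12 holds such runs. The PBX-HOX site TGATTNAT, at which Hox proteins bind with their cofactors, was in 2, 1, 2 and 0 Hox peaks (13.3%, 12.5%, 6.25% and 0%, against 3.36%, 2.56%, 3.6% and 3.02% of all peaks), and is in the stretch shown upstream of Hoxb13. The GA run GAGAGAG was in 4, 2, 6 and 2 (26.7%, 25.0%, 18.8% and 13.3%, against 17.7%, 18.7%, 17% and 17.4%). The core motif of CTCF and the retinoic acid element, a direct repeat bound by retinoic acid receptors, were in no Hox peak, and in at most 0.0395% and 0.0423% of all peaks. Both were searched as a fixed pattern, so rare in all peaks that a match in so few Hox peaks was unlikely beforehand. Their absence therefore says nothing about CTCF or retinoic acid receptor sites of other sequence. These letters can overlap each other and follow GC content, and a match is a description of the sequence only.

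Of 13 noncoding genes inside the clusters, 5, 3, 8 and 5 had a peak within 5 kb (38.5%, 23.1%, 61.5% and 38.5%). Of all protein-coding genes 60.9%, 48.8%, 66.8% and 58.9% had one. The windows of these noncoding genes overlap those of Hox genes, so they share peaks. Haglr and Hoxaas3 had one in every list, and Hotair, between Hoxc12 and Hoxc11, in the DMSO lists of both genotypes alone. The peak that Haglr had in every list was that over the start of Hoxd1, and that of Hotair was the one downstream of Hoxc12. Hottip, Mir10b and Mir196b had none in any list. The share of flanking genes with a peak was above the Hox share in every list, with 15, 12, 16 and 14 of 18, and Skap2, Lnpk, Atf2, Mtx2, Snx11, Cbx1, Cbx5, Hnrnpa1 and Skap1 had one in all 4. Skap1 held 8, 2, 9 and 8 peaks, the most of these, in a long gene body. Evx1 and Evx2, the homeobox genes beside Hoxa13 and Hoxd13, had few: Evx1 had 1 peak in each talazoparib list and Evx2 1 in KO talazoparib.

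Most genes that act on or with Hox genes had a peak. Polycomb subunits, which keep Hox genes silent, had one in 14, 15, 15 and 15 of 15 genes, trithorax and related factors, which keep them active, in 11, 10, 11 and 11 of 11, and the PBX, MEIS and PKNOX cofactors in 8, 9, 9 and 8 of 9. Upstream regulators such as the CDX factors and retinoic acid receptors had one in 7, 5, 8 and 8 of 10 (70.0%, 50.0%, 80.0% and 80.0%). Of all protein-coding genes 60.9%, 48.8%, 66.8% and 58.9% had one, so the upstream regulators were near that background in the wild-type lists. The 40 other homeobox regulators had one in 28, 19, 32 and 30 genes, above the Hox share in 3 lists and below it in KO DMSO (80.0%, against 84.6%). For reference, 19, 18, 20 and 18 of 20 housekeeping genes and 10, 9, 10 and 8 of 10 naive pluripotency genes had a peak, as did 4, 4, 4 and 3 of 5 fibroblast and 4, 4, 4 and 4 of 5 endoderm marker genes. A peak near a gene is thus common in every kind of list, and gene length differs between the lists.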

How the data were processed

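Libraries were made from 10 ng of DNA with 8 PCR cycles, per the labels' protocols. Build mm10 and the tools HOMER 4.11, Bowtie2 2.3.4.2, R 3.6 and Picard 2.9.2 are named, with no roles, in the submitters' processing notes. The authors deposited 1 peak list per condition, pooled over replicates, and its columns are HOMER's per the file headers. The deposited normalized tag count is the authors' IP signal per 10000000 tags, and the deposited input column is an input signal in tags, in steps of 0.5; a further deposited column holds IP tags scaled to the input. The deposited fold is the ratio of scaled IP to input tags, the authors' p-value was not used, and the authors' score served to rank peaks.

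IP totals were recovered from the steps of normalized values under 6, of which 100.0% fell on a half-tag step within 0.0051, with the scale set by the score at 500-bp peaks. Exact Poisson 95% intervals on the recovered tags, and Wilson 95% intervals on shares, cover counting error only. Overlaps needed at least 1 bp and were tested on simulated peaks. Tag density is over 2648 Mb. Peak coordinates are printed as deposited (0-based or 1-based starts are not told apart there). RefSeq starts (GRCm38.p6) were at hand for 22 of the 39 Hox genes. Python 3.11.15, pandas 2.3.3, numpy 2.4.6 and scipy 1.17.1 were used. Hox genes with a peak were named by cluster; sequences were picked from the regions of a cluster held by most lists and then by normalized tag count, and not every pick is shown. Members, gene lists and motifs were chosen with earlier results of these data known. Some items, with the values that rest on them, are not reported here or drawn on the map; totals include them.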

Additional observations from a re-analysis of the deposited data

How the results depend on the processing

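No paired analysis was possible because each condition has 1 pooled list and no value per library; leaving out a replicate was not run for the same reason. Of 100 alternatives, 77 stayed within 1.5 times the main value, and 23 moved beyond it, all of them counts (order WT DMSO, WT talazoparib, KO DMSO, KO talazoparib). Some moved counts still lay within the counting interval of the main count, as 5 does for the 8 peaks of WT talazoparib (3.45 to 15.8). With a window of 2 kb around starts the peaks were 8, 4, 17 and 9 and the genes 9, 4, 19 and 10. With a fold of at least 6 they were 2, 5, 13 and 3 peaks and 4, 6, 20 and 5 genes, so WT talazoparib then exceeded WT DMSO. That limit also kept a larger part of the whole WT talazoparib list than of the whole WT DMSO list. With gene bodies alone, WT talazoparib had 5 peaks and 5 genes, WT DMSO 12 genes and KO talazoparib 11. With at least 3 input tags WT talazoparib had 5 peaks and 6 genes. With equal numbers of best-scoring peaks KO DMSO had 18 peaks. KO DMSO had the highest count under each of these settings. Intervals cover counting error; the spread between cultures is unknown, sites under the authors' threshold are not seen, few input tags set each fold, and genotype cannot be told apart from flow cell.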
